A study of Mus musculus with 9 samples.

Results

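The genes followed here encode glycoproteins of the epithelial surface and a trafficking protein that serves it: *Msln*, *Muc1*, *Muc4*, *Muc16*, *Epcam*, *Upk1b*, *Upk3b* and *Rab25*. They are 8 genes beside 19369 that are listed in the series, and 7 of them have a listed value. They were chosen by symbol and matched by Entrez gene identifier, and *Msln* was picked because it rises strongly, so its values are given as a description without a test. Wild-type C57BL/6 mouse embryos gave 9 samples, 3 biological replicates at each of 3 stages. The E10.5 samples are periocular neural crest (pNC), the mesenchyme around the early eye, and per the methods the ectoderm, lens vesicle and optic cup were removed from them after dispase. The E14.5 and E16.5 samples are whole corneas, in which epithelium, stroma and endothelium are mixed. Each sample pools tissue from several eyes, so in these bulk libraries fewer cells of a type and less RNA per cell cannot be told apart.

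Membrane mucins carry long, heavily O-glycosylated ectodomains and build the glycocalyx that keeps the ocular surface wet. Mesothelin (*Msln*) is a lipid-anchored surface glycoprotein that binds the mucin Muc16, and uroplakins are integral membrane proteins best known from the apical plaques of the bladder. *Epcam* encodes an adhesion molecule found on most simple and many embryonic epithelia. *Rab25* encodes an epithelial GTPase of the Rab11 family, which returns endosomes to the apical membrane.

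The total of expected counts per sample lay between 8745161 and 9069023, so depth was near equal and only rare transcripts are limited by counting. The tissue labels were checked against markers. The crest gene *Alx1* was at 43.4 to 62.5 FPKM (fragments mapped to a gene, scaled to its length and to the depth of the sample) at E10.5 and at most 1.46 in the corneas. The corneal keratin *Krt12* was at most 0.54 FPKM at E10.5 and at 592 to 990 at E16.5. The summed FPKM of 10 genes expressed in most epithelia (*Cdh1*, *Esrp1*, *Esrp2*, *Grhl2*, *Ap1m2*, *Pkp3*, *Dsp*, *Perp*, *Marveld2* and *Krt8*) was 36.7 to 56.3 in the pNC, 279 to 497 in the E14.5 corneas and 648 to 873 in the E16.5 corneas. Epithelial transcripts were thus detected in the E10.5 samples too. Replicate 1 of E14.5 stood apart from the other E14.5 samples in genes that are not among the 8. Its pan-epithelial sum was 497 against 279 in both other E14.5 samples, and its *Krt12* was 102 FPKM against 0.62 and 2.06. Its stromal gene *Kera* was 803 FPKM against 83.1 and 151, so the difference was not limited to epithelial genes. Changes of the members to or from E14.5 are given with and without it.

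The RefSeq table (GRCm38.p6) held promoters of 6 of the 8 members and none for *Msln* and *Upk1b*. Of the 6, the window of *Muc16* is not shown because the gene has no value here. Each window runs from 250 bases before the transcription start to 50 bases after it, 5′ to 3′ on the strand of the gene. Capitals mark matches, on either strand, to the TATA box TATAAA, to the Sp1-type GC box GGGCGG, to the Klf-type box CACCC, to the Grhl-type site AACCNGTT and to the Ets-type site CAGGAAG. The AP-1 type site TGANTCA, held by 7.81% of all windows, was searched too and was not found in these. The printed matches do not overlap each other. *Upk3b*, *Muc4* and *Rab25* are shown because they rose together across the stages.

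Upk3b (chr5:136038246-136038545, + strand): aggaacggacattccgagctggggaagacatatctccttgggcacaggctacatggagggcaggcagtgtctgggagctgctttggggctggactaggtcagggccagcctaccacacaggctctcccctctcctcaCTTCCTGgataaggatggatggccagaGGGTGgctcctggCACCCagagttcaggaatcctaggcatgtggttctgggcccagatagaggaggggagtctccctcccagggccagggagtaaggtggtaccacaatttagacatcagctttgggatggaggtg

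Muc4 (chr16:32735636-32735935, + strand): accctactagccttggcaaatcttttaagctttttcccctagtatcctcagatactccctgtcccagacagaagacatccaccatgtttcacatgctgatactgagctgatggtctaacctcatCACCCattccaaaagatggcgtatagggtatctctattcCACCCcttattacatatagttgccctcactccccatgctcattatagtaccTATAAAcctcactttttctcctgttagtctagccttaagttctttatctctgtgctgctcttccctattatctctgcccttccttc

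Rab25 (chr3:88548230-88548529, - strand): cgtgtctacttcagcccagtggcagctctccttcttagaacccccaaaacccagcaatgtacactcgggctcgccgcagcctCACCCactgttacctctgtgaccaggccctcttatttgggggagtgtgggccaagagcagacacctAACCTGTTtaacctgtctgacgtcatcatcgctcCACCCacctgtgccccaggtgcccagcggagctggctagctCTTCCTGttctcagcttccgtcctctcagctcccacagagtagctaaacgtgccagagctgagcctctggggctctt

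*Epcam* and *Muc1* are shown beside them because each had another time course.

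Epcam (chr17:87635729-87636028, + strand): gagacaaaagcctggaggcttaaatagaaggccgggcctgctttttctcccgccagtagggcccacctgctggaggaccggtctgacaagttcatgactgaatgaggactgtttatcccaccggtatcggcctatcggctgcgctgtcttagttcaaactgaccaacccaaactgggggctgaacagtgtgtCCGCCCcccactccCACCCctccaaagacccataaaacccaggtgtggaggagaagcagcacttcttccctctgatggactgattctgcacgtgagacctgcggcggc

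Muc1 (chr3:89228806-89229105, + strand): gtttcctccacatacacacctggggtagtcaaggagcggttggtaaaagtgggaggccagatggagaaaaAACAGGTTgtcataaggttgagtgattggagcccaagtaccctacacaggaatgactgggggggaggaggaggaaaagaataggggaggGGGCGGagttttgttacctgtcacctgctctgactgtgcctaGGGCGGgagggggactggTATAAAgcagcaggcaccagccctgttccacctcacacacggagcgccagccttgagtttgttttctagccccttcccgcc

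CACCC was found in the windows of *Upk3b*, *Muc4*, *Rab25* and *Epcam* but not of *Muc1*, and 57.5% of 32851 mouse promoter windows of this length hold it. The Grhl-type letters, held by 2.09% of all windows, were found in *Rab25* at position -102 from the start and in *Muc1* at -180. CAGGAAG, held by 13.3%, was found in *Upk3b* and *Rab25*. TATAAA, held by 13.6%, was found in *Muc4* at -36 and in *Muc1* at -31. GGGCGG, held by 35.7%, was found in *Muc1* and *Epcam*. The windows of the 3 genes that rose together shared only CACCC among the letters searched. These are matches of letters only.

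The 7 genes with values followed 3 time courses. *Msln*, *Upk1b*, *Upk3b*, *Muc4* and *Rab25* were low or absent at E10.5, intermediate at E14.5 and highest at E16.5. *Epcam* was already the most abundant of them at E10.5 and was highest at E14.5. *Muc1* was highest in the pNC. In a single edgeR model over all 14771 genes that passed the filter, a call required an adjusted p (Benjamini-Hochberg) below 0.05 and a log2 fold change of 1 or more in either direction. *Muc4* and *Upk3b* passed the filter on low counts through the corneal samples alone, as did *Msln*, so their calls in that model are not counted. Of the other 4 members tested, *Epcam*, *Upk1b* and *Rab25* were higher and *Muc1* was lower in the E14.5 cornea compared to the pNC, where 13.6% of all genes tested were called higher and 7.97% lower. At E16.5 compared to E10.5, again 3 were higher and 1 lower, beside 19.4% and 15.4% of all genes. At E16.5 compared to E14.5, 2 of the 4 were higher, beside 6.26% of all genes, and none was lower by edgeR, beside 5.47%. One member, *Epcam*, was lower there by edgeR at an adjusted p of 0.0076 without reaching the fold minimum, and DESeq2, limma and NOISeq also called 0 lower. *Upk1b* and *Rab25* exceeded the filter level in 1 and 2 of the 3 E10.5 samples. Both thus needed the corneal samples to pass, and their calls in that model are a description. In the same model without the filter, over 19298 genes with a count in any sample, 5 of the 6 members were higher and 1 lower than in the pNC at both corneal stages. There 11.3% of all genes were called higher and 7.17% lower at E14.5, and 16.3% and 13.4% at E16.5. From E14.5 to E16.5 this fit called 4 of the 6 higher and none lower, beside 5.04% and 4.41% of all genes, with *Epcam* again under the fold minimum. The values of *Muc4* and *Upk3b* below come from that fit, and those of the other members tested from the fit with the filter. Without the filter, the log2 fold changes of *Upk1b* and *Rab25* from E10.5 to E14.5 were 3.80 and 2.74 (edgeR adjusted p = 5.4e-04 and 1.3e-04). The comparisons with the pNC share the E10.5 samples.

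**Figure D1:**
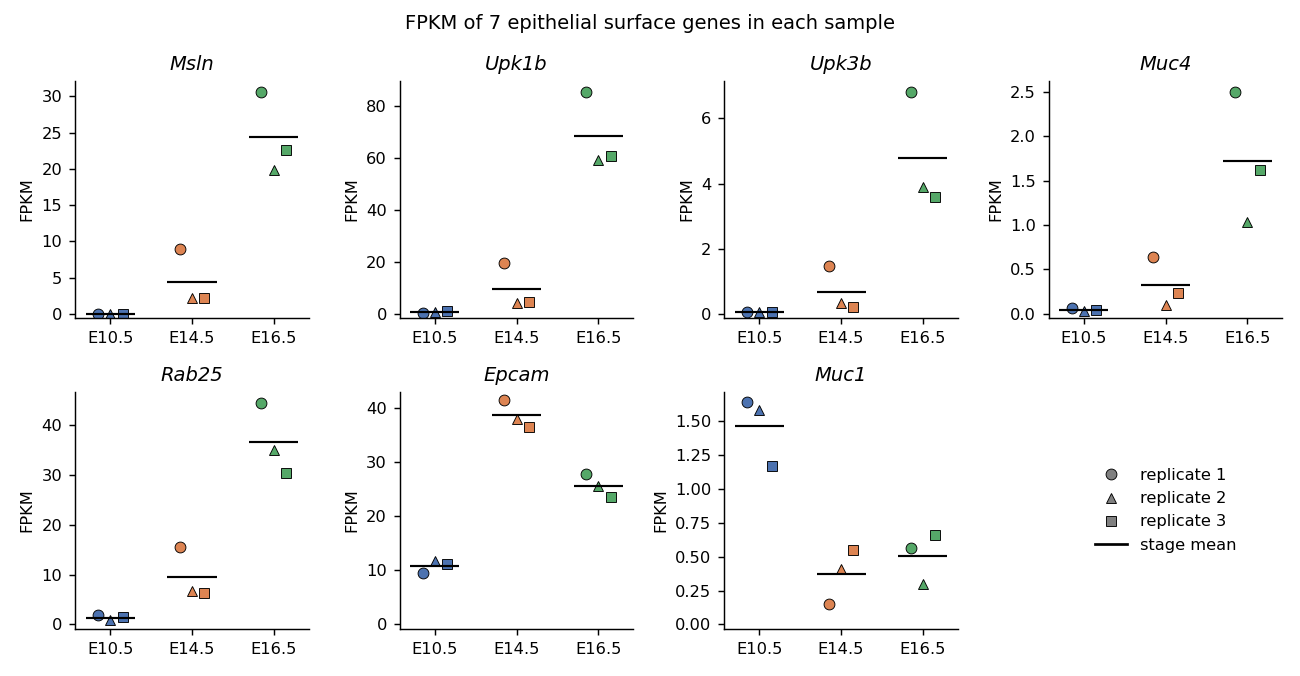
FPKM (vertical axes, each from about 0 and with its own scale) of the 7 members with values in each of the 9 samples, by stage. Symbols mark replicates 1, 2 and 3 and bars mark stage means. *Msln*, *Upk1b*, *Upk3b*, *Muc4* and *Rab25* climb stage by stage with replicate 1 highest at E14.5, *Epcam* peaks at E14.5, and *Muc1* is highest at E10.5.

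*Msln* (chr17:25748613-25754378, GRCm38.p6) had no counts in the 3 E10.5 samples. In the E14.5 corneas it was at 8.93, 2.13 and 2.15 FPKM in replicates 1, 2 and 3, and at E16.5 it was at 30.6, 19.9 and 22.7 FPKM. The stages did not overlap, and the level at E14.5 was carried largely by replicate 1. Set against a floor of 3 counts over the E10.5 group, its summed level was at least 83.0-fold higher at E14.5, or at least 40.7-fold without replicate 1 of E14.5, and at least 516-fold higher at E16.5. Its mean FPKM at E16.5 was 5.54 times that at E14.5, or 11.4 times without replicate 1 of E14.5. These are the values for which the gene was chosen. *Muc16*, the mucin that mesothelin binds, lies at chr9:18495445-18674821 and is not analysed here because no sample lists a value for it. Among the relatives of mesothelin that were examined, *Mslnl* was at most 0.26 FPKM and *Otoa* at most 0.21 FPKM in any sample, and neither passed the filter.

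The uroplakin members *Upk1b* and *Upk3b* rose across the stages. *Upk1b* (chr16:38773182-38800203), a tetraspanin that pairs with the Upk3 uroplakins, was at 0.44, 0.50 and 1.03 FPKM at E10.5. It was at 19.6, 4.13 and 4.39 FPKM at E14.5 and at 85.4, 59.1 and 60.8 FPKM at E16.5. No stage overlapped another, and at E16.5 it was the most abundant member at 68.4 ± 14.7 FPKM (SD, n = 3). By edgeR its log2 fold change was 3.80 (SE 0.73, adjusted p = 0.0012) from E10.5 to E14.5 and 3.03 (SE 0.47, adjusted p = 0.0013) from E14.5 to E16.5. Without replicate 1 of E14.5 these became 2.68 and 4.16, and both calls held.

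*Upk3b* (chr5:136038496-136044993), a partner of Upk1b at the membrane, had 1 count in each E10.5 sample. It was at 1.46, 0.34 and 0.22 FPKM at E14.5 and at 6.81, 3.90 and 3.60 FPKM at E16.5. Every corneal sample was above every pNC sample, and every E16.5 sample was above every E14.5 sample. From the summed counts it was 12.1-fold higher at E14.5 than at E10.5 (95% counting interval 3.81 to 61.2), 5.03-fold without replicate 1 of E14.5 (1.29 to 28.4), and 96.1-fold higher at E16.5 (32.5 to 469). In the edgeR fit without the filter its log2 fold change was 3.43 (SE 0.92, adjusted p = 0.0084) at E14.5 and 6.41 (SE 0.71, adjusted p = 5.4e-06) at E16.5, both relative to E10.5. The rise from E14.5 to E16.5 was 2.98 (SE 0.48, adjusted p = 9.2e-04). Without replicate 1 of E14.5, in fits with the filter, the rise between the corneal stages was 4.22 and the rise to E14.5 was 2.19. The E14.5 call was lost with limma on log2(FPKM + 1), where the log2 fold change was 0.59, and with NOISeq.

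Its paralog *Upk3bl* (chr5:136057259-136076695) was far more abundant. It was at 1.41, 1.40 and 0.33 FPKM at E10.5, at 135, 62.8 and 63.3 FPKM at E14.5, and at 334, 241 and 241 FPKM at E16.5. The log2 fold change of *Upk3bl* was 6.33 (SE 0.45) from E10.5 to E14.5 and 1.81 (SE 0.28, adjusted p = 0.0013) from E14.5 to E16.5, or 5.88 and 2.26 without replicate 1 of E14.5. The FPKM ratio of *Upk3bl* to *Upk3b* was 92.2, 185 and 288 in the E14.5 samples and 49.1, 61.7 and 66.8 in the E16.5 samples. The ratio was thus lower in every E16.5 sample than in every E14.5 sample. The other uroplakins stayed low. *Upk2*, a single-pass uroplakin, had no counts at E10.5 and was at 2.57 ± 0.74 FPKM at E14.5 and 3.52 ± 0.79 FPKM at E16.5 (SD, n = 3), at least 19.8-fold and 30.4-fold higher against the same floor. *Upk1a*, the tetraspanin closest to Upk1b, was at 0.89 ± 0.32, 1.31 ± 0.17 and 0.41 ± 0.36 FPKM over the stages (SD, n = 3) and was not called in any comparison. *Upk3a* was listed in a single E14.5 sample, at 0.21 FPKM.

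**Figure D2:**
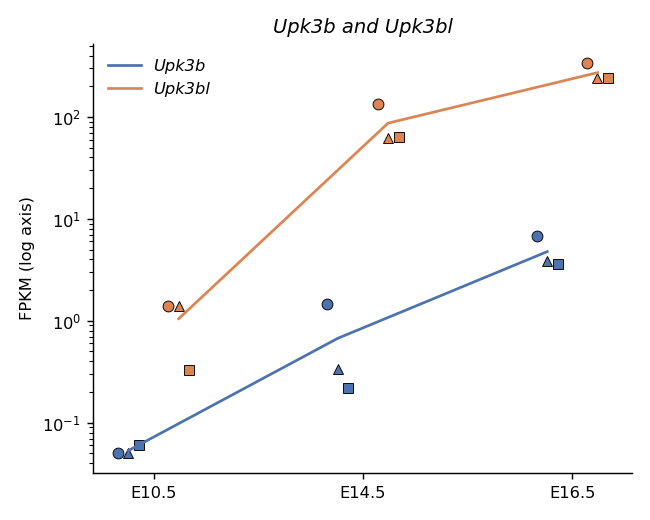
FPKM on a logarithmic vertical axis of *Upk3b* and its paralog *Upk3bl*, by stage. Points are samples (circle, triangle and square for replicates 1, 2 and 3) and lines join the stage means. *Upk3bl* is above *Upk3b* in every sample, and both climb stage by stage.

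Of the membrane mucins, *Muc4* rose and *Muc1* fell. *Muc4* (chr16:32735886-32782391), a ligand of the receptor ErbB2, was at 0.07, 0.03 and 0.04 FPKM at E10.5. It was at 0.64, 0.10 and 0.23 FPKM at E14.5 and at 2.50, 1.03 and 1.62 FPKM at E16.5. The stages did not overlap, although the lowest E14.5 sample was close to the highest E10.5 sample. In the edgeR fit without the filter the log2 fold change was 2.77 (SE 0.72, adjusted p = 0.0074) at E14.5 and 5.34 (SE 0.62, adjusted p = 8.8e-06) at E16.5, relative to E10.5, and 2.57 (SE 0.47, adjusted p = 0.0018) between the corneal stages. Without replicate 1 of E14.5, in fits with the filter, the change to E14.5 was 1.81 and that from E14.5 to E16.5 was 3.54. The E14.5 call was lost with limma at pseudocounts of 1 and 0.1 (adjusted p = 0.24 and 0.059) and with NOISeq, which did not call the later rises of *Muc4* either. The 3′ part of the gene overlaps *Muc20* (chr16:32777419-32797435), and the strand of the libraries is not given in the sources used here, so reads of the shared stretch cannot be assigned to either gene.

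*Muc1* (chr3:89229056-89233381), the widely expressed membrane mucin of epithelia, was at 1.64, 1.58 and 1.17 FPKM in the pNC. It was at 0.15, 0.41 and 0.55 FPKM at E14.5 and at 0.56, 0.30 and 0.66 FPKM at E16.5. Every pNC sample was above every corneal sample, and the corneal stages overlapped. The log2 fold change relative to E10.5 was -1.97 (SE 0.42, adjusted p = 0.0023) at E14.5 and -1.37 (SE 0.40, adjusted p = 0.010) at E16.5. Between the corneal stages it was 0.60 (95% interval -0.45 to 1.66, adjusted p = 0.36), which spans no change and a rise past the fold minimum. The change to E14.5 was -1.60 and that between the corneal stages 0.23 without replicate 1 of E14.5. These levels rest on 23 to 33 counts per sample at E10.5 and 3 to 13 in the corneas. Neither fall was called with limma on log2(FPKM + 1), which gave -0.85 and -0.71, or with NOISeq. Replicate 1 of E14.5, which had the highest E14.5 level of the rising members, had the lowest *Muc1* level of all 9 samples.

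*Epcam* (chr17:87635979-87651127) was at 9.46, 11.8 and 11.2 FPKM at E10.5, the highest member in each of those samples. It rose to 41.4, 38.0 and 36.5 FPKM at E14.5 and stood at 27.9, 25.5 and 23.5 FPKM at E16.5. The 3 stages did not overlap, and the replicates of each were close. The log2 fold change was 1.82 (SE 0.10, adjusted p = 4.1e-07) at E14.5 and 1.39 (SE 0.11, adjusted p = 9.9e-07) at E16.5, relative to E10.5. From E14.5 to E16.5 it was -0.43 (SE 0.10, 95% interval -0.65 to -0.21, adjusted p = 0.0076), which passes the p threshold and is under the fold minimum, so it was not called. The changes to and from E14.5 were 1.78 and -0.38 without replicate 1 of E14.5. Replicate 1 of E14.5 was 1.11 times the mean of the other E14.5 samples for *Epcam*, against 4.17 times for *Msln* and 4.61 times for *Upk1b*.

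*Rab25* (chr3:88542029-88548279) was at 1.92, 0.85 and 1.42 FPKM at E10.5. It was at 15.6, 6.66 and 6.35 FPKM at E14.5 and at 44.5, 35.0 and 30.4 FPKM at E16.5. The stages did not overlap. The log2 fold change was 2.74 (SE 0.42, adjusted p = 3.2e-04) from E10.5 to E14.5 and 2.11 (SE 0.31, adjusted p = 0.0010) from E14.5 to E16.5, and all alternatives tried kept these calls. Without replicate 1 of E14.5 the log2 fold changes were 2.20 and 2.65.

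**Figure D3:**
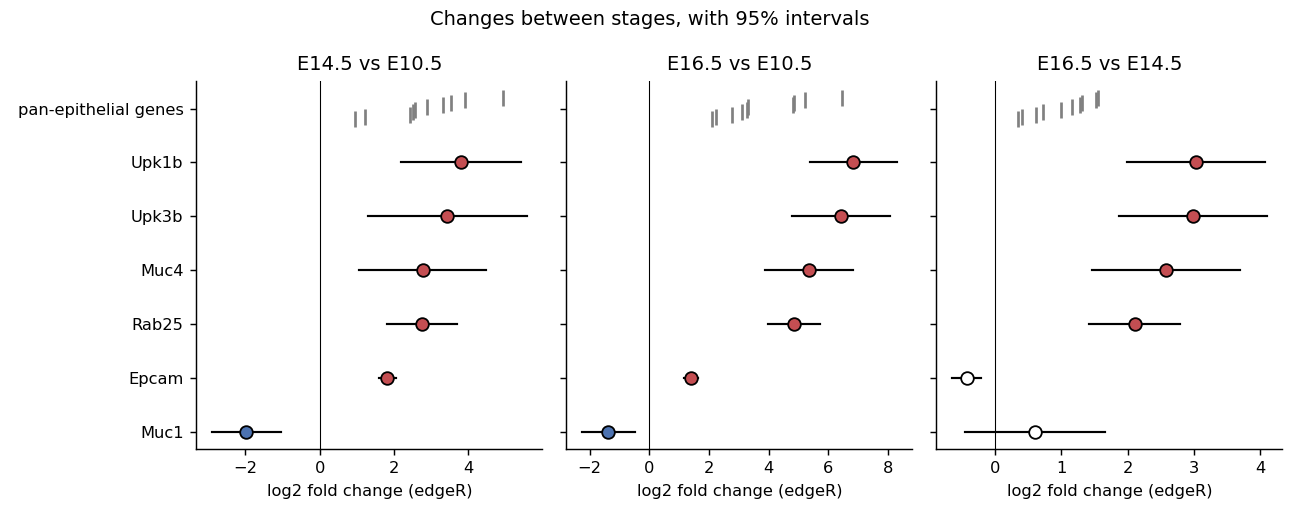
Log2 fold change by edgeR in the fit with the filter (horizontal axis) of the 6 members tested, in each pair of stages, with 95% intervals. Red points were called higher, blue lower and open points were not called, and grey ticks show the 10 pan-epithelial genes. *Muc4* and *Upk3b* passed this filter through the corneal samples alone, and *Upk1b* and *Rab25* needed those samples, so their colors are a description. *Upk1b*, *Upk3b*, *Muc4* and *Rab25* lie right of 0 in each panel, whereas *Epcam* and *Muc1* lie near 0 in E16.5 vs E14.5.

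The order of the members by mean FPKM changed with stage. At E10.5, *Epcam* led, followed by *Muc1*, *Rab25* and *Upk1b*, where *Rab25* overlapped both others in range. Below *Upk1b*, without overlap, came *Upk3b* and *Muc4*, which overlapped each other, and last *Msln*. At E14.5, *Epcam* led again, *Rab25*, *Upk1b* and *Msln* followed with overlapping ranges, and *Upk3b*, *Muc1* and *Muc4* overlapped at the bottom. At E16.5, the order was *Upk1b*, *Rab25*, *Epcam*, *Msln*, *Upk3b*, *Muc4* and *Muc1*, and only *Epcam* and *Msln* overlapped among neighbors. The summed FPKM of the 7 genes was 14.4 ± 0.75 in the pNC, 63.3 ± 21.2 in the E14.5 corneas and 162 ± 31.3 in the E16.5 corneas (SD, n = 3). In the E14.5 corneas it was 87.8 in replicate 1 against 51.8 and 50.4 in replicates 2 and 3. *Epcam* made up 69.7 to 79.6% of that sum in the pNC, 47.2 to 73.4% in the E14.5 corneas and 14.1 to 17.6% in the E16.5 corneas. *Upk1b* made up 3.24 to 6.89%, 7.98 to 22.4% and 40.8 to 43.1% over the same stages. *Msln* was 0 in the pNC, 4.12 to 10.2% in the E14.5 corneas and 13.7 to 15.8% in the E16.5 corneas. The lowest E14.5 share of *Epcam* and the highest of *Upk1b* and *Msln* were in replicate 1.

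**Figure D4:**
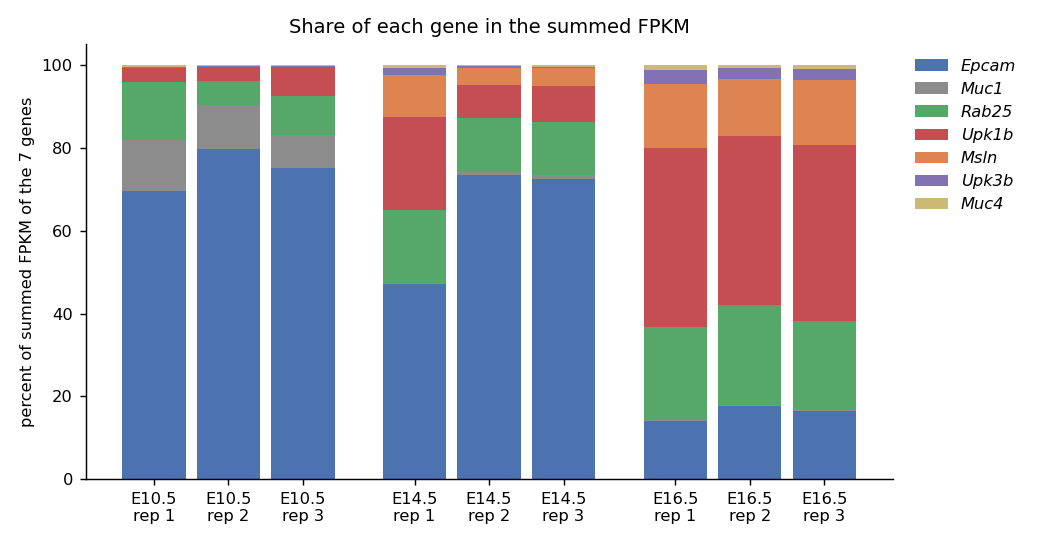
Percent of the summed FPKM of the 7 members (vertical axis, from 0 to 100) held by each gene in each of the 9 samples. *Epcam* holds most of the sum at E10.5 and *Upk1b* the largest share in every E16.5 sample, and replicate 1 of E14.5 lies between the other E14.5 samples and the E16.5 samples.

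Because the epithelium is only part of the cornea, the members were also set against the 10 pan-epithelial genes in each corneal sample. The measure was log2(FPKM + 0.1) of the gene minus the mean of the list. *Upk1b* was higher relative to the list by 2.36 at E16.5 than at E14.5 on this scale, *Upk3b* by 2.09, *Muc4* by 1.36 and *Rab25* by 1.18. *Msln*, with no test, was higher by 1.89. *Epcam* was at 0.57 ± 0.30 relative to the list at E14.5 and at -0.89 ± 0.13 at E16.5 (SD, n = 3), a difference of -1.46. For these 5 genes other than *Msln* the stages did not overlap, and the exact two-sided permutation test gave p = 0.1, the smallest that 3 against 3 samples allow. For *Muc1* the difference was -0.44 and the exact permutation p = 0.6. Without replicate 1 of E14.5 the differences were 2.86 for *Upk1b*, 2.55 for *Upk3b*, 1.65 for *Muc4*, 1.37 for *Rab25*, 2.33 for *Msln* and -1.63 for *Epcam*. With a pseudocount of 1 the difference of *Muc4* was 0.19 and that of *Upk3b* 0.98. The pan-epithelial genes themselves had a median log2 fold change of 1.08 from E14.5 to E16.5. Of these, 5 of 10 were called higher, beside 6.26% of all genes tested.

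The genes with the most similar time course were found by profile overlap, the sum over the 9 samples of the smaller of both genes' shares of their own summed FPKM, among 11407 genes with at least 5 FPKM in some sample. It is a description over samples that share a strong difference between stages. For *Msln* the closest were *Fgfbp1* (98.0%), *Grhl1* (97.3%), *Paqr5* (96.8%), *Phyhip* (96.8%) and *S1pr5* (96.6%). For *Upk1b* they were *Ces1d* (98.7%), *Grhl1* (98.2%) and *Gdpd2* (98.1%), so the transcription factor gene *Grhl1* was close to both. *Upk3b* was closest to *Asprv1* (96.8%), *Lgals3* (96.3%) and *Arhgap40* (95.9%), and *Muc4* to *Mal* (94.0%), *Zfp750* (93.7%) and *Arhgap40* (93.6%). *Rab25* was closest to *Ifitm1* (97.3%), *Gca* (96.8%) and *Fxyd3* (96.8%). *Epcam* was closest to *Pde1c* (98.0%), *Arhgef28* (97.0%) and *Frem2* (96.7%), and *Muc1* to *Eya2* (93.1%), *Dusp4* (93.0%) and *Fscn1* (92.3%). Among the members, *Msln* and *Upk1b* overlapped by 96.2% and *Upk1b* and *Upk3b* by 94.0%. *Epcam* overlapped the others by 46.9% to 57.1% and *Muc1* by 28.2% to 51.9%.

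Genes that work with the members were followed in 8 lists, of which 80 genes were listed and 64 passed the filter. In these, edgeR called 24 higher and 2 lower for E14.5 vs E10.5, 33 and 7 for E16.5 vs E10.5, and 17 and 5 for E16.5 vs E14.5. Over all genes tested, 13.6% were higher and 7.97% lower, 19.4% and 15.4%, and 6.26% and 5.47% in the same comparisons. A gene low at one stage could pass the filter through another, so these counts are a description. The median log2 fold changes were 0.81, 1.17 and 0.29, where those of all genes tested were 0.015, 0.00062 and -0.024. The 10 pan-epithelial genes had medians of 2.72, 3.29 and 1.08.

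Other mucins and mucin-like sialomucins did not move as a block. Of 8 tested, 4 were higher and 3 lower at E16.5 than at E10.5, beside 19.4% and 15.4% of all genes tested. *Muc15*, a membrane mucin, had no counts at E10.5 and was at 1.65 ± 0.39 FPKM at E16.5 (SD, n = 3), at least 25.9-fold higher against 3 counts. *Muc20* was at 1.30 ± 0.74 FPKM at E16.5 and 64.8-fold higher in summed counts than at E10.5 (95% counting interval 17.5 to 541), with the overlap with *Muc4* already given. *Cd164*, a sialomucin of many cell types, was the most abundant of the list at 177 ± 7.25 FPKM (SD, n = 3) at E16.5 and was 1.49 (SE 0.10) higher than at E10.5 on the log2 scale. The falls were in *Emcn*, *Podxl* and *Ovgp1*, an oviduct mucin. *Emcn*, an endothelial sialomucin, fell by 5.58 (SE 0.37) on the log2 scale to 0.74 ± 0.57 FPKM, and *Podxl*, known from podocytes and vessels, fell by 2.81 (SE 0.29) to 1.48 ± 0.32 FPKM (SD, n = 3). Beside them, the summed FPKM of 5 blood cell markers was 2025 to 3228 in the pNC and 7.27 to 8.33 in the E16.5 corneas. The pNC sum was carried by the globin genes *Hba-x* and *Hbb-bh1*, with means of 1612 and 1067 FPKM. Over the stages *Cd68* had means of 6.10, 6.23 and 4.87 FPKM, *Ptprc* 1.07, 1.33 and 0.74, and *Mpo* 1.80, 15.3 and 0.087. *Cd68* and *Ptprc* were not called against the pNC. The part of blood cells in these falls was not tested. The goblet cell mucin *Muc5ac* was at most 0.01 FPKM. *Muc2* was at 0.15 ± 0.035, 0.55 ± 0.05 and 0.40 ± 0.12 FPKM over the stages (SD, n = 3). By edgeR it was higher than in the pNC at E14.5 (log2 fold change 1.90, adjusted p = 5.0e-04) and at E16.5 (1.60, adjusted p = 0.0011).

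The partners of EpCAM rose with few exceptions: 7 of 8 were higher than in the pNC at both corneal stages, and 4 rose again between them. Over all genes tested, 13.6% and 19.4% were higher than in the pNC at E14.5 and E16.5, and 6.26% rose between the corneal stages. *Cldn1*, a tight junction claudin, went from 1.28 ± 0.15 to 14.3 ± 6.54 and 44.2 ± 7.95 FPKM (SD, n = 3). *Spint2*, a membrane inhibitor of the serine proteases that cleave EpCAM, went from 16.4 ± 3.26 to 120 ± 35.9 and 203 ± 35.4 FPKM (SD, n = 3). *Spint1*, a related inhibitor, went from 2.92 ± 1.06 to 14.1 ± 4.62 and 25.5 ± 5.29 FPKM (SD, n = 3). *Cd44*, the hyaluronan receptor, was 2.27 (SE 0.27) higher on the log2 scale at E16.5 than at E14.5. The exception was *Cldn7*, the claudin that binds EpCAM directly, at 4.2 to 6.04 FPKM in the pNC and at 5.24 ± 0.32 and 6.67 ± 2.19 FPKM in the corneas (SD, n = 3). It was not called in any comparison, and from the pNC to the E16.5 cornea its log2 fold change was 0.57 (SE 0.25, adjusted p = 0.059).

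Of 20 enzymes that start, extend or cap mucin-type O-glycans, 7 were higher and 3 lower in the E16.5 cornea than in the pNC, where 19.4% and 15.4% of all genes tested were. Between the corneal stages 4 were higher and 3 lower, beside 6.26% and 5.47%. *Galnt18*, of the family that adds the initial GalNAc, went from 3.59 ± 1.18 to 49.2 ± 15.3 and 63.4 ± 3.60 FPKM (SD, n = 3). The sialyltransferase genes moved apart. *St6galnac2* was 3.48 (SE 0.21) higher in the E16.5 cornea than in the pNC on the log2 scale, whereas *St3gal4* fell by 2.62 (SE 0.24). *Fut2*, which makes the H antigen on mucins, was called higher and was at 0.46 ± 0.11 FPKM (SD, n = 3) at E16.5.

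Of the galectins and the proteins that anchor the glycocalyx, 4 of 8 were higher and 1 lower at E16.5 than at E10.5. Over all genes tested, 19.4% were higher and 15.4% lower there. *Lgals7*, a galectin of stratified epithelia, was at 1.17 to 1.93 FPKM in the pNC and reached 30.5 ± 14.7 and 104 ± 30.4 FPKM in the corneas (SD, n = 3). *Lgals3*, the galectin that binds membrane mucins at the ocular surface, was at 0.17 to 0.49 FPKM in the pNC, 0.33 to 2.21 FPKM at E14.5 and 7.82 ± 2.73 FPKM (SD, n = 3) at E16.5. The change of 1.72 on the log2 scale to E14.5 was not called (adjusted p = 0.085) and that of 3.10 from E14.5 to E16.5 was (SE 0.52, adjusted p = 0.0018). *Ezr*, which ties apical membrane proteins to actin, rose by 2.27 (SE 0.17) on the log2 scale from the pNC to E16.5.

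Among the sheddases and ErbB receptors, 4 of 6 were higher in the E16.5 cornea than in the pNC, beside 19.4% of all genes tested. These were *Egfr*, *Erbb2*, *Erbb3* and *Mmp14*. The sheddase genes *Adam10* and *Adam17* were not called in any comparison. Their log2 fold changes from the pNC to E16.5 were 0.13 (SE 0.10) and -0.16 (SE 0.085). *Erbb2*, the receptor bound by Muc4, went from 14.9 ± 2.89 to 33.5 ± 8.89 and 50.6 ± 1.78 FPKM (SD, n = 3), so its level was above that of *Muc4* at every stage. *Egfr* rose by 3.44 (SE 0.15) on the log2 scale to E14.5 and was not called from E14.5 to E16.5 at -0.30 (SE 0.13, adjusted p = 0.10). *Erbb3* was 1.22 (SE 0.21, adjusted p = 0.0018) higher at E16.5 than at E14.5. *Mmp14*, a membrane protease, was the most abundant of the list at 124 ± 11.9 FPKM (SD, n = 3) at E16.5.

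Of 11 Rab11 recycling genes around *Rab25* tested, 5 were higher in the E16.5 cornea than in the pNC, and 2 rose between the corneal stages. Over all genes tested, 19.4% and 6.26% were called higher in these comparisons. *Rab11a*, the ubiquitous paralog, was at 35.7 ± 2.31, 34.3 ± 3.31 and 39.8 ± 1.36 FPKM (SD, n = 3) and was not called in any comparison. *Rab17*, another epithelial Rab, was at 0.23 ± 0.25, 0.77 ± 0.58 and 5.56 ± 1.84 FPKM (SD, n = 3) and was 7.99-fold higher at E16.5 than at E14.5 by edgeR (adjusted p = 0.0023). *Myo5b*, the motor that Rab11 proteins engage, rose by 2.77 (SE 0.21) on the log2 scale from the pNC to E16.5. The mean FPKM of *Rab25* was under that of *Rab11a* at E10.5 and E14.5, and their ranges overlapped at E16.5.

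**Figure D5:**
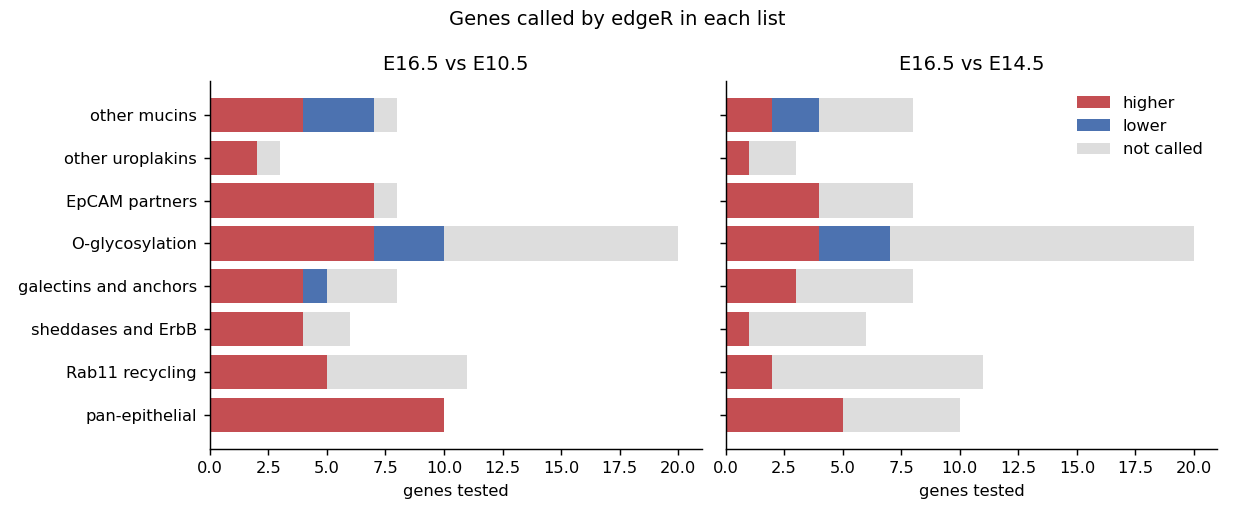
Number of genes tested (horizontal axis) in each list that edgeR called higher (red), lower (blue) or did not call (grey), at E16.5 vs E10.5 and at E16.5 vs E14.5. The EpCAM partners and pan-epithelial genes are mostly red in the left panel, and the lists of mucins and O-glycosylation enzymes hold both directions.

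Markers of other epithelia were compared with the corneal samples, since several members are known from mesothelium, bladder, conjunctiva and skin. Of the 9 mesothelial markers, 6 had a mean of at least 1 FPKM in the pNC, 7 at E14.5 and 5 at E16.5. *Wt1* and *Lrrn4* were at most 0.15 and 0.13 FPKM in any sample. In the corneas *Rspo1* was at 11.3 to 30.3 FPKM, *Cdh3* at 26.8 to 38.1 FPKM, *Nkain4* at 2.89 to 4.53 FPKM and *Bnc1* at 2.78 to 5.12 FPKM. In the pNC these genes were at 27.5 to 30.5, 9.88 to 12.5, 3.59 to 5.93 and 0.83 to 1.38 FPKM. By edgeR *Rspo1* and *Nkain4* were not called in any comparison. *Cdh3*, *Bnc1* and *Krt19* were called higher than in the pNC at both corneal stages. *Gpm6a* was lower at E16.5 than at E10.5 (log2 fold change -2.34, edgeR adjusted p = 3.6e-04). *Calb2* was lower at E16.5 than at E14.5 (-3.29, edgeR adjusted p = 0.028). The summed level of the 9 markers was 49.8 to 58.1 FPKM in the pNC and 205 to 304 in the E16.5 corneas, of which *Krt19* alone was 156 to 253. Of the conjunctival and goblet cell markers 8 of 10 were listed and summed to 5.31 to 8.21, 46.1 to 57.2 and 82.8 to 123 FPKM over the stages. *Krt7* made up most of this, and *Krt13* was at 6.45 to 17.4 FPKM and *Krt4* at 2.57 to 5.38 FPKM at E16.5. *Spdef* was at most 0.31 FPKM in any sample, and *Agr2* was at 0.61 to 1.09 FPKM at E16.5. *Fcgbp* was at most 0.45 FPKM and was called higher than in the pNC at E14.5 and E16.5 (log2 fold change 2.59 and 2.23). The 8 periderm and suprabasal skin markers summed to 9.12 to 17.4, 112 to 170 and 378 to 604 FPKM, with replicate 1 highest at both corneal stages. The part of mesothelial, conjunctival, periderm or eyelid cells in the rise of the members was not tested.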

How the data were processed

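RNA-Seq was made from 9 samples of wild-type mouse embryos, 3 pools per stage, on an Illumina HiSeq instrument. The authors filtered reads, aligned them with Bowtie 2 (reference genes) and HISAT (GRCm38), and quantified genes with RSEM. Tool versions and strand are not given in the sources used here. The deposited expected counts are RSEM estimates that the authors did not normalize, and the deposited FPKM values were scaled by the authors to transcript length and mapped fragments. A gene missing from a file was taken as 0.

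Expected counts were rounded, filtered with filterByExpr by stage, scaled with TMM and fitted with edgeR 4.0.16 (R 4.3.3) in a quasi-likelihood model of stage over all 9 samples. This fit was tested on simulated data for E16.5 vs E10.5 only, and the fit without the filter was not. Tests of *Muc4* and *Upk3b* are given from the same model without the filter, over genes with a count in any sample. Genes were matched by Entrez identifier to RefSeq (GRCm38.p6), and 19312 of 19369 matched. The floor for a stage without counts was 3 counts over the stage, and intervals of 95% on summed counts cover counting error only. Replicates differed by more than sampling noise (chi-square per degree of freedom 2.93 to 26.3), and p-values measure the spread between these pools. The genes and lists were chosen with earlier results of these data known, and 1 gene of the lists is not reported here and not counted. Named list genes are at most 4 called genes a list by largest change from E10.5 to E16.5, plus the most abundant at E16.5. *Otoa*, *Upk1a*, *Upk3a*, *Cldn7*, *Muc5ac*, *Muc2*, *Ovgp1*, *Adam10* and *Adam17* were named after their values were seen. Alternatives used DESeq2 1.42.0, limma 3.58.1 and the NOISeq criterion of the methods (probability of at least 0.8, log2 ratio of at least 1, zeros set to 0.01).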

Additional observations from a re-analysis of the deposited data

How the results depend on the processing

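No fold change of a member reversed under any alternative run, and leaving out any single sample changed no call: 5 members were higher and 1 lower in both comparisons with E10.5, and 4 higher and 0 lower from E14.5 to E16.5, each range running from that count to itself. These counts include *Muc4* and *Upk3b*, which pass the filter through the corneas alone, and *Upk1b* and *Rab25*, which need the corneas to pass. Without replicate 1 of E14.5 the edgeR calls of *Muc4* and *Upk3b* at E14.5 had adjusted p = 0.042 and 0.044. For the genes of the 8 lists, leaving out 1 sample gave 19 to 29 higher and 2 to 3 lower at E14.5 vs E10.5, 32 to 35 and 7 to 8 at E16.5 vs E10.5, and 13 to 21 and 4 to 6 at E16.5 vs E14.5. Library totals or RLE size factors in place of TMM, no filter on low counts, DESeq2 and a fit of only the 6 samples compared kept every count within 1.5 times. In the fit of 6 samples *Upk3b* fell below the filter at E14.5 vs E10.5, which left 4 members higher.

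The scale mattered for low genes. With limma on log2(FPKM + 1), with or without the filter, and with the NOISeq criterion, 3 members were higher for E14.5 vs E10.5 and 0 were lower than the pNC at either corneal stage, because *Muc4*, *Upk3b* and *Muc1* no longer passed. With limma and a pseudocount of 0.1 the counts were 4 higher and 1 lower, and the cause of the NOISeq result was not tested. For the lists, limma on log2(FPKM + 1), with or without the filter, gave 10 higher and 3 lower at E16.5 vs E14.5, and NOISeq gave 9 and 2 there and 14 higher at E14.5 vs E10.5. Without a fold minimum, 1 member (*Epcam*) was lower for E16.5 vs E14.5. For the lists this gave 9 lower for E14.5 vs E10.5, 12 lower for E16.5 vs E10.5, and 28 higher and 9 lower for E16.5 vs E14.5, since fewer conditions were asked.

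The samples of each stage are numbered 1, 2 and 3 and the labels do not say that a number pairs them. Deviations from the stage means correlated at -0.0164 on average (-0.225 to 0.250) over the 9 pairs with the same number. Over the 18 pairs with different numbers the average was 0.00917 (-0.207 to 0.188). Averages over so few pairs cannot show whether samples with the same number share anything else. Replicate 1 was highest at E14.5 for every member with values except *Muc1*, and again highest at E16.5 for those genes. With the replicate block the members gave 5 higher and 1 lower, 5 and 1, and 4 and 0 in the 3 comparisons, and the list genes 26 and 2, 33 and 7, and 16 and 5.

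Depth limits every member except *Epcam* at E10.5, where *Muc1* had 23 to 33 counts per sample, *Rab25* 8 to 18, *Upk1b* 7 to 16, *Muc4* 3 to 7 and *Upk3b* 1, and the absence of counts for *Msln* is a limit of detection. The bounds and summed values without replicate 1 of E14.5 were added after seeing the data.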
